A study of Mus musculus with 768 samples.

Results

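The 37 mitosis genes described here encode proteins that carry a cell from the end of DNA replication through chromosome segregation and cell division. They were taken as a list of names, chosen with earlier results of these data known. All 37 of 37 were found among the 23127 genes of the count table. Cyclin A and cyclin B switch on the kinase Cdk1, chromosomes condense and attach to the spindle through kinetochores, and a checkpoint holds the cell until every chromosome is attached. The anaphase-promoting complex then marks cyclins and other proteins for destruction, and the cell divides. The mRNAs of these genes build up in G2 and M phase and are low in resting cells, and in the thymus, where T-cell precursors multiply at defined stages, they mark the cells that are close to division.

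Thymocytes of C57BL/6 mice of 6 to 8 weeks of age were sorted into 8 plates of 96, and RNA was counted in the resulting 768 single cells. The groups were Tcf7-/- (germline deletion), Vav-cre with Tcf7fl/fl alleles, Lck-cre with Tcf7fl/fl alleles, and wild type (WT). TCF1, the product of Tcf7, is a DNA-binding regulator needed early in the T-cell lineage. The Vav promoter drives Cre in blood-forming cells in general, and the Lck promoter drives it in developing T cells. The DN2-3 gate held CD45-positive, lineage-negative, CD4- CD8- cells with CD25, and the DN1 gate held such cells without CD25 but with CD44. Both gates were sorted from Tcf7-/-, Vav-cre and WT mice, 1 plate each, and Lck-cre mice gave 2 plates of the DN2-3 gate. The labels name neither animals nor sexes, so each library was taken as 1 sample, no test between genotypes was run, and no p-value is given.

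Of the 768 cells, 675 had at least 1000 detected genes and were kept, 76 to 93 per DN2-3 library and 58 to 96 per DN1 library. The median cell held 43592.5 to 70003 counts in the DN2-3 libraries, with the highest value in Tcf7-/-, and 19293 to 66572 counts in the DN1 libraries. Cd44, which marks the DN1 gate, stood at 0 to 4.42 CPM (counts of a gene scaled to the summed counts of its library, in the usual CPM unit) in the DN2-3 libraries and at 193 to 269 CPM in the DN1 libraries. In the DN2-3 gate, Cd4 stood at 10.2 CPM in Tcf7-/- and 3.65 CPM in Vav-cre, with 0 counts in WT and on both Lck-cre plates. Cd8a stood there at 36.7 CPM in Tcf7-/-, 50.7 CPM in Vav-cre and 0 and 2.23 CPM on the Lck-cre plates, against 18.3 CPM in WT. Tcf7 itself stood at 122 CPM in Tcf7-/- DN2-3 and 964 CPM in Vav-cre DN2-3, against 862 CPM in WT DN2-3, and at 98.6 CPM in Tcf7-/- DN1 and 368 CPM in Vav-cre DN1, against 134 CPM in WT DN1. The Lck-cre plates had 762 and 658 CPM, so lower Tcf7 counts than WT by 2-fold were seen only in the DN2-3 library labelled Tcf7-/-, and the counts say nothing of which exons were read. The Tcf7-/- plates also carry other labels than the rest (poly(A) RNA in place of total RNA, and a single name for the genome build), so genotype and any batch tied to those labels cannot be told apart. All 8 plates carry the same 96 cell barcodes, and no pair of kept cells with the same barcode on different plates held identical counts.

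A kept cell was called a programme cell when at least 10 of the 37 mitosis genes had at least 2 counts in it. In the DN2-3 gate, 35 of 93 Tcf7-/- cells met this, a share of 37.6% (exact Clopper-Pearson 95% interval 27.8 to 48.3%). The share was 10.5% in Vav-cre (8 of 76 cells, 4.66 to 19.7%) and 12.1% and 11.5% on the Lck-cre plates (11 of 91 and 10 of 87 cells), against 7.95% in WT (7 of 88 cells, 3.26 to 15.7%). The Tcf7-/- interval did not overlap that of WT or of Vav-cre, and the Lck-cre plates, the only libraries that share a genotype and gate, differed by less than their intervals. These intervals cover counting error only, since neither the spread between mice nor repeated PCR copies of a molecule enter them.

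In the DN1 gate, programme cells were few. They numbered 5 of 96 in Tcf7-/- (5.21%, interval 1.71 to 11.7%) and 0 of 58 in Vav-cre, against 1 of 86 in WT (1.16%, interval 0.0294 to 6.31%). The exact interval for 0 of 58 cells reaches 6.16%, and a floor of 3 cells allows a share of up to 5.17%. The 3 intervals overlapped and cover counting error only. With 1 library per genotype the genotypes could not be ranked in this gate either. The plot of genes per cell shows how thinly the DN1 libraries are filled above the limit. Of the 5 Tcf7-/- DN1 programme cells, 1 had 34 mitosis genes and the next had 14, and the only such WT DN1 cell had 18.

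**Figure D1:**
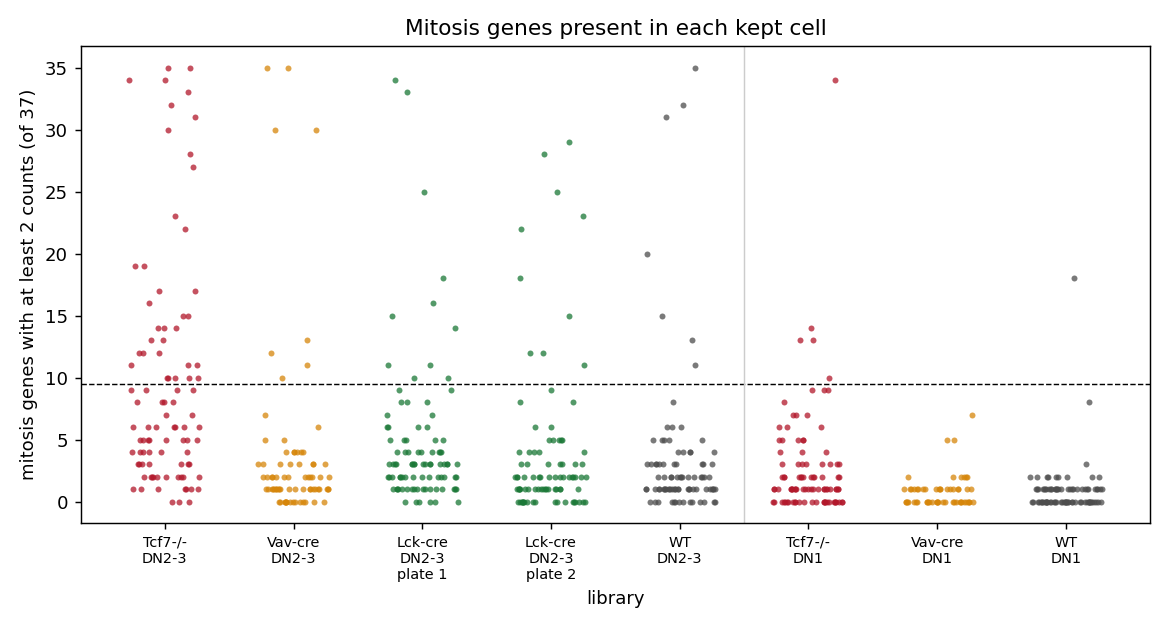
Number of the 37 mitosis genes with at least 2 counts in each kept cell (vertical axis), by library (horizontal axis). Each point is 1 cell, colours mark the genotype, and the dashed line separates programme cells (10 genes or more). The Tcf7-/- DN2-3 library has 35 cells above the line, the other DN2-3 libraries have 7 to 11, and the DN1 libraries have 5, 0 and 1.

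Programme cells held more counts than the rest, and the number of genes seen in a cell moves with its depth. In Tcf7-/- DN2-3 the median programme cell held 124527 counts and the median other cell 53120, and in WT DN2-3 these were 120874 and 41046 counts. With every cell thinned to 10000 counts and a gene present from 1 count, programme cells made up 25.8% in Tcf7-/- DN2-3 (23 of 89 cells, interval 17.1 to 36.2%) and 12.3% in Vav-cre DN2-3 (8 of 65 cells). The thinned shares on the Lck-cre plates were 12.9% and 13.5%, against 7.50% in WT DN2-3 (6 of 80 cells, interval 2.80 to 15.6%). The Tcf7-/- share remained the highest of the 5, and its interval still lay above that of WT but now overlapped those of the other 3 libraries. The shallow cells left out of this count numbered 4 in Tcf7-/-, 11 in Vav-cre, 6 and 13 in Lck-cre, and 8 in WT.

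**Figure D2:**
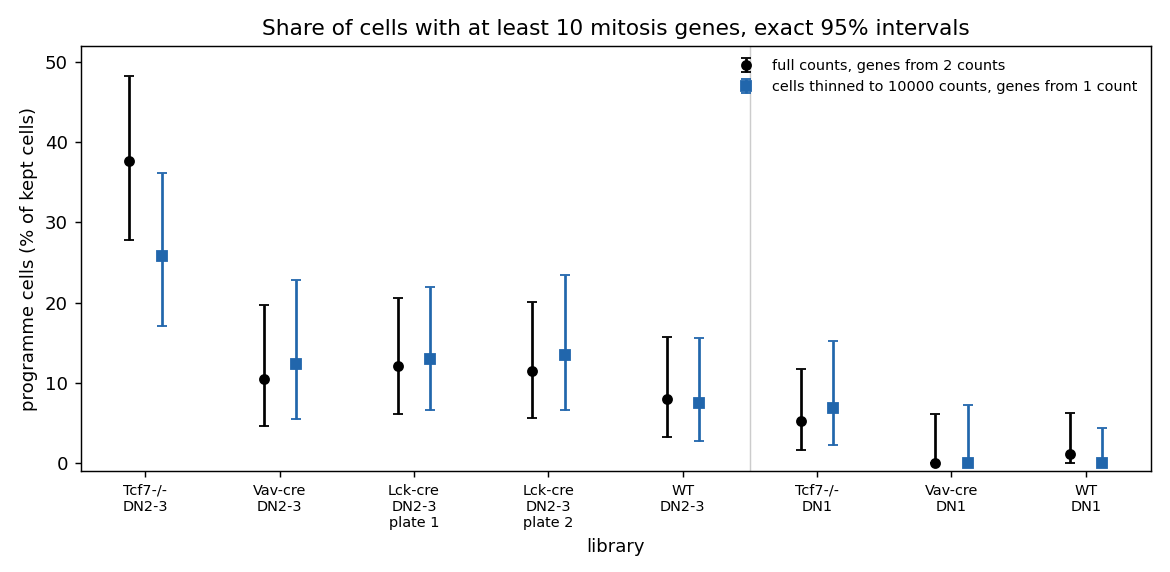
Programme cells as a percentage of kept cells (vertical axis) in each library (horizontal axis), with exact 95% intervals as bars. Black circles use the full counts and blue squares use cells thinned to 10000 counts. Tcf7-/- DN2-3 stands at 37.6% with full counts and 25.8% thinned, against 7.95% and 7.50% in WT DN2-3.

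Because programme cells are defined by these genes, their share of the mitosis mRNA and the low level of the rest follow in part from that choice and are descriptions. They held 91.7% of the counts of the 37 genes in Tcf7-/- DN2-3, 80.9% in Vav-cre and 74% and 73.5% on the Lck-cre plates, against 79.4% in WT DN2-3. The other cells of the gate, each with fewer than 10 of the genes, had summed levels of 615 CPM in Tcf7-/-, 429 CPM in Vav-cre and 617 and 560 CPM on the Lck-cre plates, against 457 CPM in WT. The median programme cell had 3014 CPM in Tcf7-/-, 5998 CPM in Vav-cre and 2377 and 4723 CPM on the Lck-cre plates, against 6045 CPM in WT. The median level of the programme cells in Tcf7-/- DN2-3 was neither the highest nor the lowest of the 5 libraries.

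The programme cells of the DN2-3 gate carried markers of DN3 thymocytes, the stage at which the T-cell receptor beta chain is rearranged. Of 10 such markers, which include Ptcra, Rag1 and Dntt, the median programme cell had 8 in Tcf7-/-, 7 in Vav-cre and 7 and 7.5 on the Lck-cre plates, against 6 in WT. The median other cell had 8 in Tcf7-/-, 7 in Vav-cre and 7 and 6 on the Lck-cre plates, against 7 in WT. The summed level of these markers was lower in programme cells than in the other cells of the same library in all 5 libraries, with 2946 CPM against 5113 CPM in Tcf7-/- and 3654 CPM against 6917 CPM in WT. Markers of natural killer cells were few in them, with a median of 0 or 1 of 10 per programme cell. Their summed level in programme cells was 68.7 CPM on Lck-cre plate 2, the lowest, and 333 CPM in WT, the highest. Of these markers, Nkg7 had at least 2 counts in 50.5% of all kept cells in Tcf7-/- DN2-3 and 67% in WT DN2-3. Of 9 early progenitor markers, the median programme cell had 0 in Tcf7-/-, 1 in Vav-cre and 0 on both Lck-cre plates, against 2 in WT. Their summed level in programme cells was 6.53 CPM in Tcf7-/- and 71.3 CPM in Vav-cre. It was 95.4 and 146 CPM on the Lck-cre plates, against 465 CPM in WT. In the other cells it was 71.3 CPM in Tcf7-/-, against 540 CPM in WT. Il2ra, which encodes the gated CD25, stood at 419 CPM in Tcf7-/- DN2-3 and 225 CPM in Vav-cre, against 264 CPM in WT DN2-3.

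Among the 71 programme cells of the 5 DN2-3 libraries, the genes seen most often were Cks2, the small adaptor of Cdk1 complexes, in 64 cells, and Top2a, the topoisomerase that untangles sister chromosomes, in 62 cells. Birc5, the survivin subunit of the chromosomal passenger complex, was present in 60 of the 71 cells and Ccnb2, a B-type cyclin, in 57. Cks2 also had at least 2 counts in 146 of the 364 other cells (40.1%), whereas Birc5 had them in 31 (8.52%). At the other end, the kinesins Kif4 and Kif2c were present in 23 and 20 programme cells and in 0 and 1 of the other cells. Kif20a, a kinesin of cytokinesis, had at least 2 counts in only 2 programme cells and in none of the others.

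The A- and B-type cyclins divided these cells. Cyclin A2 (Ccna2), which acts in S phase and G2, had at least 2 counts in 46 of the 71 programme cells, and cyclin B1 (Ccnb1), which drives entry into mitosis, in 42. Both were present in 33 cells, Ccna2 without Ccnb1 in 13, Ccnb1 without Ccna2 in 9, and neither in 16. In Tcf7-/- DN2-3, 18 of 35 programme cells had both cyclins and 5 had neither, and in WT DN2-3 3 of 7 had both and 3 had neither. Cdc20, the activator of the anaphase-promoting complex, was seen in 32 of the 71 cells. A gene missed in a cell may lie below the depth of that cell. By depth alone, the counts of cells with a gene are lower limits and the count with neither cyclin is an upper limit. The counts with 1 cyclin alone could move either way. Reads of overlapping genes or pseudogenes, or a well with more than 1 cell, could also add a gene, which was not tested.

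The promoters of 31 of the 37 genes were in the RefSeq table of GRCm38.p6 (300 bases, from 250 before to 50 after the start), and Aurkb, Tpx2, Kif20a, Spc24, Ccna2 and Pbk were not matched. The cell cycle genes homology region (CHR), bound by the DREAM and MuvB complexes that time genes to late cell cycle, was searched as TTTGAA, its variant as TTCGAA and the NF-Y box as CCAAT, each on both strands. TTTGAA was found in 24 of 31 promoters of the mitosis genes (77.4%) and in 18.1% of all 27025 promoters. The matched shares were 57.1% for 49 other mitosis genes and 10.7% for 28 DNA replication genes. CCAAT was found in 26 of 31 (83.9%) and in 37.9% of all, and both TTTGAA and CCAAT in 22 of 31 (71%) and in 7.12% of all. The variant TTCGAA was in 3 of 31 (9.68%) and in 1.57% of all. TTTGAA lay between 100 bases before and 50 bases after the start in 22 of 31 (71%), against 8.08% of all.

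Stretches of 150 bases before the start are shown for 5 genes in which both motifs lie upstream and for Birc5, which had no match to any of the 3 motifs in its 300 bases. They are printed on the strand of the gene, from RefSeq GRCm38.p6, and end before the start that RefSeq or the GENCODE annotation places further upstream. Capitals mark each match to 1 of these 3 motifs on either strand, so the reverse complement of the NF-Y box reads ATTGG. The regions are chr10:69352939-69353088 for Cdk1 (minus strand), chr4:118437353-118437502 for Cdc20 (minus), chr19:37376232-37376381 for Kif11 (plus), chr11:99024190-99024339 for Top2a (minus), chr7:135716380-135716529 for Mki67 (minus) and chr11:117849087-117849236 for Birc5 (plus).
Cdk1: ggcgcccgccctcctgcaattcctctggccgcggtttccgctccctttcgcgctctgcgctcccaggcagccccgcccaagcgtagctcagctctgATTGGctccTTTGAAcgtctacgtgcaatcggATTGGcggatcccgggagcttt
Cdc20: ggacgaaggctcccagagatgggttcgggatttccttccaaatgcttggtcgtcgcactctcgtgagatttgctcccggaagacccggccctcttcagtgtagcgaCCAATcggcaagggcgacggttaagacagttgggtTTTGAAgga
Kif11: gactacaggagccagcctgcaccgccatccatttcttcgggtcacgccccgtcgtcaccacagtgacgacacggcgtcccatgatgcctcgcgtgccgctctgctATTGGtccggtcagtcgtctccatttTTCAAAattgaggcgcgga
Top2a: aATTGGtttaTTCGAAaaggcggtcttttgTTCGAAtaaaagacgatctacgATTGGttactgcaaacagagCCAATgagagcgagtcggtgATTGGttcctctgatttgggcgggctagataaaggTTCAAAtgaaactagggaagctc
Mki67: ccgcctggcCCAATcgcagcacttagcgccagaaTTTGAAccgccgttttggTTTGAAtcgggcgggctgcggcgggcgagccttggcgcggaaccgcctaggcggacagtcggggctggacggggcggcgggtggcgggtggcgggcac
Birc5: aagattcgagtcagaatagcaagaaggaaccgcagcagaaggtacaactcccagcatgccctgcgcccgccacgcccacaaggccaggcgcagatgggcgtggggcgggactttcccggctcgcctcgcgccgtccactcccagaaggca
The Top2a stretch holds 4 CCAAT boxes, 2 variant CHRs and 1 TTTGAA match, and the Mki67 stretch holds 2 TTTGAA matches and 1 CCAAT box. The Birc5 stretch holds none, and of the 24 mitosis genes compared Birc5 had the highest mean likeness to the summed level of the 37 genes, of which it is 1, with a mean Pearson r of 0.581 over the 5 DN2-3 libraries. Within a library r was 0.504 to 0.750, and the highest gene was Cdk1 in Vav-cre (0.592) and Top2a on Lck-cre plate 1 (0.602) and in WT (0.605). These matches describe the letters of the windows, and no binding was measured.

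The levels below are sums of counts over the kept cells of a library, in CPM, and log2 ratios carry a pseudocount of 10 CPM on both sides, which understates differences of low genes. Genes under 10 CPM in every library compared were left out as not measured. The summed level of the 37 genes was 3490 CPM in Tcf7-/- DN2-3, 1844 CPM in Vav-cre DN2-3 and 1722 and 1572 CPM on the Lck-cre plates, against 1754 CPM in WT DN2-3. The Tcf7-/- library lay apart, and the other 4 lay between 1572 and 1844 CPM. A single cell held 42.8% of these counts on Lck-cre plate 1, 30.4% in Vav-cre and 15.9% in Tcf7-/-. On Lck-cre plate 2 the highest cell held 19%, and in WT 24.2%. Without the highest cell of each library the sums were 3014 CPM in Tcf7-/- and 1325 CPM in Vav-cre. They were then 1056 and 1352 CPM on the Lck-cre plates, against 1357 CPM in WT. In the DN1 gate the sums were 1871 CPM in Tcf7-/- and 402 CPM in Vav-cre, against 301 CPM in WT.

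**Figure D3:**
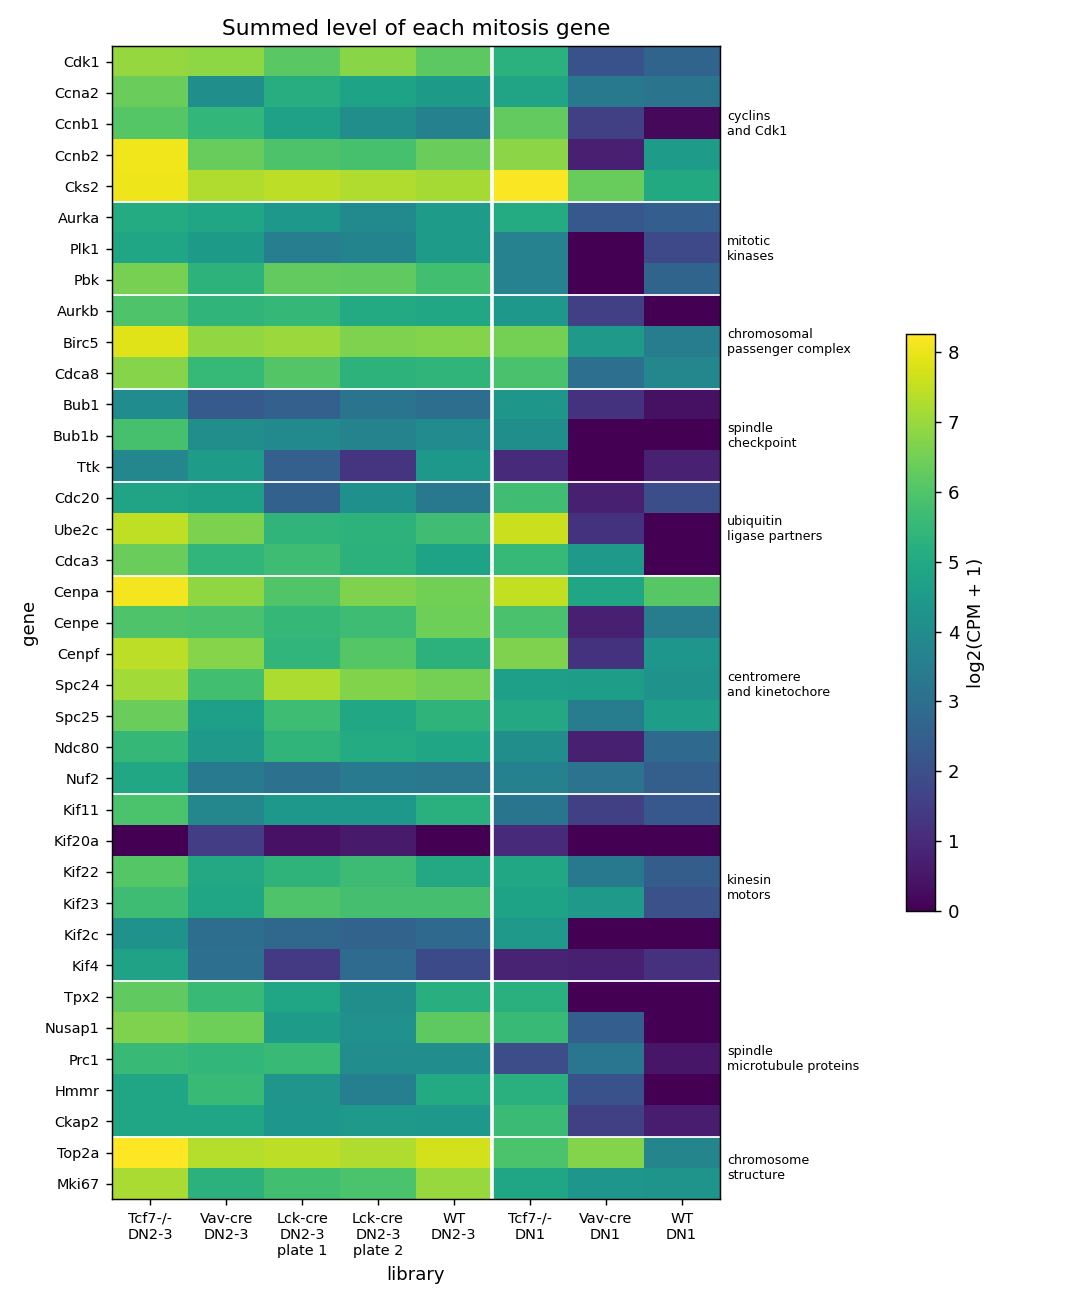
Summed level of each mitosis gene (rows, grouped by role) in each library (columns), as log2(CPM + 1) in colour. The DN2-3 libraries are left of the white line and the DN1 libraries right of it. In 31 of 37 rows Tcf7-/- DN2-3 is the highest of the 5 DN2-3 libraries, and the same count over all genes was not made.

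In Tcf7-/- DN2-3 against WT DN2-3, 13 of 36 measured mitosis genes were at least 2-fold higher, beside 3.19% of all measured genes, and 0 were 2-fold lower, beside 10.5% of all. The median log2 ratio was 0.87, and that of all measured genes -0.17. Of the 37 genes, 31 were higher in Tcf7-/- DN2-3 than in any other DN2-3 library, and the exceptions were Ttk, Cenpe, Spc24, Kif20a, Kif23 and Hmmr. How many of all measured genes rank this way was not counted. The Lck-cre plates give a yardstick: the size of their log2 ratio in the median measured mitosis gene was 0.28, and 1 of 31 was 2-fold higher on plate 1, beside 2.59% of all measured genes.

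The cyclin group holds 5 genes (Ccna2, Ccnb1, Ccnb2, Cdk1 and Cks2). Of these, 3 were at least 2-fold higher in Tcf7-/- DN2-3 than in WT DN2-3, beside 3.19% of all measured genes. The median log2 ratio of the 5 was 1.52. Ccnb2 stood at 272 CPM in Tcf7-/- DN2-3, 80.3 CPM in Vav-cre and 61.2 and 56.5 CPM on the Lck-cre plates, against 82.6 CPM in WT. Ccna2 had 81 CPM in Tcf7-/-, 16.2 CPM in Vav-cre and 34.4 and 26.5 CPM on the Lck-cre plates, against 21.7 CPM in WT. Both cyclins were high in the Tcf7-/- library alone, with log2 ratios to WT of 1.61 for Ccnb2 and 1.52 for Ccna2. Ccnb1 had 66.5 CPM in Tcf7-/-, 43.6 CPM in Vav-cre and 25.7 and 16.1 CPM on the Lck-cre plates, against 11.3 CPM in WT. It was thus lowest in WT, and its log2 ratio to WT was 1.85 in Tcf7-/- and 1.33 in Vav-cre. In Vav-cre DN2-3 the cell with barcode 33 alone had 112 counts of Ccnb1, and the next programme cell had 40. Cdk1, the kinase itself, had 124 CPM in Tcf7-/-, 115 CPM in Vav-cre and 69.9 and 109 CPM on the Lck-cre plates, against 71.3 CPM in WT. Its log2 ratio of 0.72 in Tcf7-/- was below 2-fold and close to the 0.58 by which the Lck-cre plates differed.

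Subunits of the kinetochore, which couples chromosomes to the spindle, were uneven. Cenpf, a large protein of the outer kinetochore, had 172 CPM in Tcf7-/- DN2-3, 108 CPM in Vav-cre and 41.9 and 66.1 CPM on the Lck-cre plates, against 39 CPM in WT. Cenpa, the histone H3 variant that marks centromeres, had 277 CPM in Tcf7-/-, 118 CPM in Vav-cre and 63.6 and 99.3 CPM on the Lck-cre plates, against 90.03 CPM in WT. The log2 ratios of Tcf7-/- to WT were 1.89 for Cenpf and 1.52 for Cenpa, both larger than the plate difference in Lck-cre of any measured mitosis gene. The motor Cenpe went the other way, with 62.5 CPM in Tcf7-/- and 85.4 CPM in WT, a log2 ratio of -0.40. Spc24, Spc25, Ndc80 and Nuf2 form the NDC80 complex, and their log2 ratios were 0.56, 0.88, 0.50 and 1.06, with Nuf2 alone past 2-fold.

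Of 3 genes of the chromosomal passenger complex, whose kinase is Aurkb, 2 were at least 2-fold higher, beside 3.19% of all measured genes. Birc5 had 232 CPM in Tcf7-/- DN2-3, 121 CPM in Vav-cre and 128 and 99.8 CPM on the Lck-cre plates, against 104 CPM in WT. Its log2 ratio to WT was 1.09, that of Cdca8 (borealin) 1.20 and that of Aurkb 0.88, which is below 2-fold. Among the kinases outside the complex, Aurka, which matures the spindle poles, had 33 CPM in Tcf7-/- and 22.1 CPM in WT, and Plk1, a kinase of mitotic entry, had 28.9 CPM in Tcf7-/- and 22.3 CPM in WT. Their log2 ratios of 0.42 and 0.27 were below 2-fold. Pbk, a mitotic protein kinase, had a log2 ratio of 0.73.

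The spindle checkpoint genes divided. Bub1b, which encodes BubR1, had 56.5 CPM in Tcf7-/- DN2-3, 16 CPM in Vav-cre and 14.6 and 11.8 CPM on the Lck-cre plates, against 14.7 CPM in WT, a log2 ratio of 1.43. The checkpoint kinase Ttk had 13.3 CPM in Tcf7-/-, 22.4 CPM in Vav-cre and 4.74 and 1.37 CPM on the Lck-cre plates, against 20.3 CPM in WT. Tcf7-/- was thus the highest library for Bub1b and lay between the others for Ttk. Of 3 genes of protein destruction, 2 were at least 2-fold higher, beside 3.19% of all measured genes. Ube2c, the ubiquitin-conjugating enzyme of the anaphase-promoting complex, had 175 CPM in Tcf7-/-, 97.7 CPM in Vav-cre and 40.9 and 39.4 CPM on the Lck-cre plates, against 52.4 CPM in WT. Its log2 ratio was 1.56, that of Cdca3, a ubiquitin ligase factor for the inhibitor of mitotic entry, 1.32, and that of Cdc20, just below 2-fold, 0.98.

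Of 5 measured kinesin motors 1 was at least 2-fold higher, beside 3.19% of all measured genes, with a median log2 ratio of 0.81. Of 5 spindle microtubule proteins 1 was at least 2-fold higher, with a median of 0.40. Kif4, a chromosome-bound kinesin, had 26 CPM in Tcf7-/- DN2-3, 7.07 CPM in Vav-cre and 1.64 and 6.33 CPM on the Lck-cre plates, against 2.61 CPM in WT, a log2 ratio of 1.51. Kif11, the motor that pushes spindle poles apart, had a log2 ratio of 0.58, Kif22, a motor on chromosome arms, 0.92, Kif2c, a microtubule depolymerase, 0.81, and Kif23, a motor of the central spindle, -0.12. Prc1, which bundles central spindle microtubules, had a log2 ratio of 1.17, but the Lck-cre plates differed in Prc1 by 1.15. Tpx2, the activator of Aurka on the spindle, stood at 0.89, Nusap1, a microtubule binder, at 0.40, Ckap2, a spindle-associated protein, at 0.33 and Hmmr, a spindle pole protein, at -0.14. Of the genes on chromosomes, Top2a had 305 CPM in Tcf7-/-, 161 CPM in Vav-cre and 173 and 154 CPM on the Lck-cre plates, against 206 CPM in WT. Mki67, which coats mitotic chromosomes, had 147 CPM in Tcf7-/-, 38.6 CPM in Vav-cre and 53.5 and 59.7 CPM on the Lck-cre plates, against 127 CPM in WT. For these the log2 ratios of Tcf7-/- over WT were 0.54 and 0.20.

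In Vav-cre DN2-3 against WT DN2-3, 3 of 32 measured mitosis genes were at least 2-fold higher (Ccnb1, Cenpf and Prc1), beside 5.77% of all measured genes, and 2 were lower (Kif11 and Mki67), beside 10.5% of all. The median log2 ratio was 0.12, and that of all measured genes -0.14. The cell with barcode 33 held over 50% of the counts of 6 mitosis genes in Vav-cre DN2-3. Without the highest cell of each gene in both libraries the median was 0.10. In Lck-cre DN2-3 against WT DN2-3, 0 of 32 were at least 2-fold higher, beside 0.935% of all, and 3 were lower (Ttk, Nusap1 and Mki67), beside 3.48% of all. The median there was 0.02, a value whose sign changed with the setting, and that of all measured genes -0.08. Mki67 was thus below WT by 2-fold in both conditional lines, with log2 ratios of -1.49 in Vav-cre and -1.04 in Lck-cre, and Nusap1 stood at 22.9 and 17.3 CPM on the Lck-cre plates, against 73.5 CPM in WT DN2-3. Both comparisons use the same WT library.

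**Figure D4:**
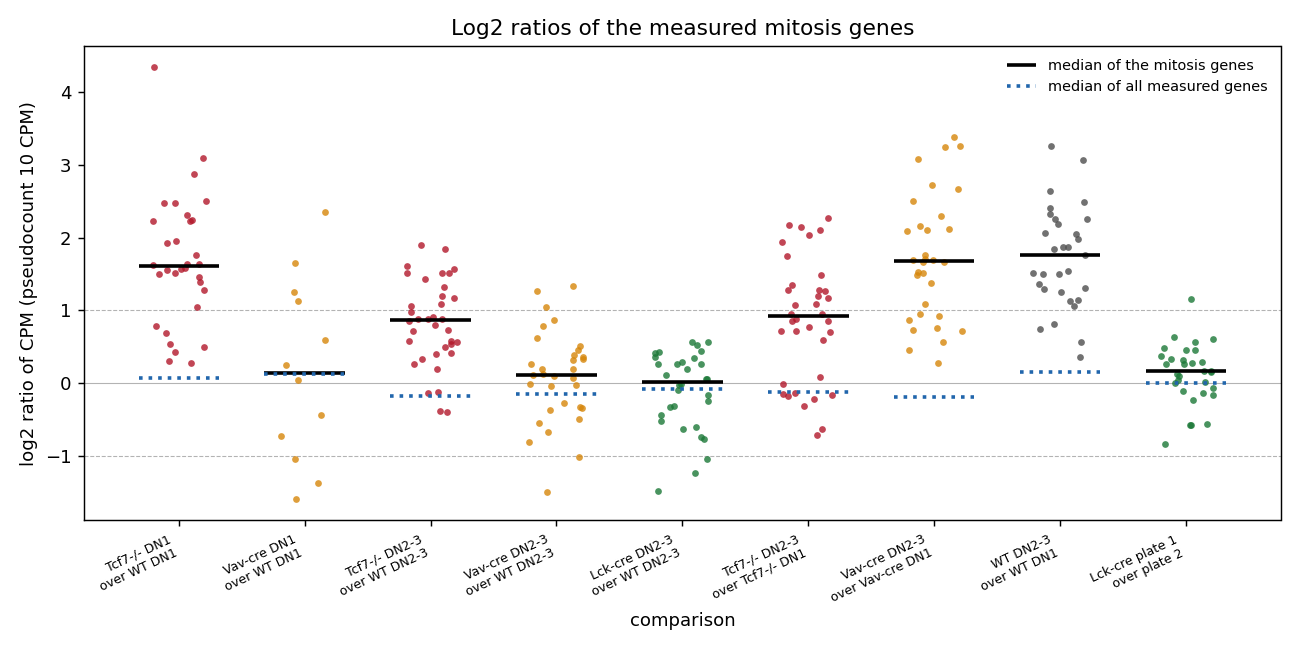
Log2 ratios of the measured mitosis genes (vertical axis, CPM with a pseudocount of 10 CPM) in each comparison (horizontal axis), 1 point per gene. Black bars are the medians of the mitosis genes, dotted blue bars the medians of all measured genes, and dashed lines mark 2-fold. The medians are 0.87 for Tcf7-/- DN2-3, 0.12 for Vav-cre DN2-3 and 0.02 for Lck-cre DN2-3 over WT.

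Between the gates, the median mitosis gene was higher in DN2-3 in each genotype with both. In WT, 27 of 31 measured genes were at least 2-fold higher in DN2-3 than in DN1, beside 16.3% of all measured genes, and 0 were lower, beside 11.7% of all. The median log2 ratio was 1.76, and that of all measured genes 0.15. In Vav-cre, 23 of 32 were higher, beside 15.9% of all, and 0 lower, beside 24.7% of all, with a median of 1.68. In Tcf7-/-, 16 of 36 were higher, beside 8.14% of all, and 0 lower, beside 17.1% of all, with a median of 0.92. In 9 of these 36 the log2 ratio was below 0, with Cdc20 at 27.5 CPM in Tcf7-/- DN2-3 and 51.4 CPM in Tcf7-/- DN1 (-0.71) and Ckap2 at 28 CPM in Tcf7-/- DN2-3 and 48.8 CPM in Tcf7-/- DN1 (-0.63). For 34 of 37 genes the lowest of the 5 DN2-3 libraries stood above both Vav-cre and WT DN1, the exceptions being Cenpa, Nuf2 and Kif20a, but for only 14 of 37 did it also stand above Tcf7-/- DN1. These orders were not counted over all genes. Top2a had 206 CPM in WT DN2-3 and 12.7 CPM in WT DN1, and Ube2c had 52.4 CPM in WT DN2-3 and 0 counts in WT DN1, which makes it at least 124-fold higher against a floor of 3 counts in the library.

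In the DN1 gate, 25 of 32 measured mitosis genes were at least 2-fold higher in Tcf7-/- than in WT, beside 10.4% of all measured genes, and 0 were lower, beside 5.34% of all. The median log2 ratio was 1.61, or 1.70 with genes at 0 counts in WT set to their bound. Ube2c had 192 CPM in Tcf7-/- DN1 and 0 in WT DN1, at least 455-fold higher against the same floor. Ccnb1 had 76.5 CPM in Tcf7-/- DN1 and 0.141 CPM in WT DN1, which is a single count. Cks2 had 295 CPM in Tcf7-/- DN1 and 31.5 CPM in WT DN1. Nusap1, Tpx2, Hmmr and Kif2c, all proteins of spindle microtubules, had 46.9, 36.8, 37 and 21.2 CPM in Tcf7-/- DN1 and 0 counts in WT DN1.

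A single cell held most of these counts. The cell with barcode 89 held 5634 of the 7782 counts of the 37 genes in Tcf7-/- DN1 (72.4%). It was the deepest cell of its plate, with 270481 counts, and had at least 2 counts of 34 of the 37 genes. It held 300 of 318 Ccnb1 counts, 725 of 798 Ube2c counts, 148 of 154 Hmmr counts and 387 of 421 Cenpf counts, and over 50% of the counts of 29 genes. It also carried 9 of 9 early progenitor markers, among them Kit and Cd34, 7 of 10 DN3 markers and 3 of 10 natural killer markers, with 71 counts of Cd44 and 10 counts of Il2ra. Without it the summed level was 552 CPM, and 3 of 17 measured genes were at least 2-fold higher than in WT DN1, beside 10.1% of all measured genes, with a median log2 ratio of 0.38. Leaving out the highest cell of each gene in both libraries gave a median of 0.57. With each cell at the same depth, the highest cell held 21.9% of the signal of the 37 genes in Tcf7-/- DN1, and with cells weighted equally the median over WT DN1 was 1.31. Against the DN1 level without that cell, 34 of 36 measured genes were at least 2-fold higher in Tcf7-/- DN2-3, beside 8.92% of all, with a median of 1.99. That cell was left out after seeing the data, and every DN2-3 cell stayed in. Leaving out the highest cell of each gene in both Tcf7-/- libraries gave a median of 1.69.

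**Figure D5:**
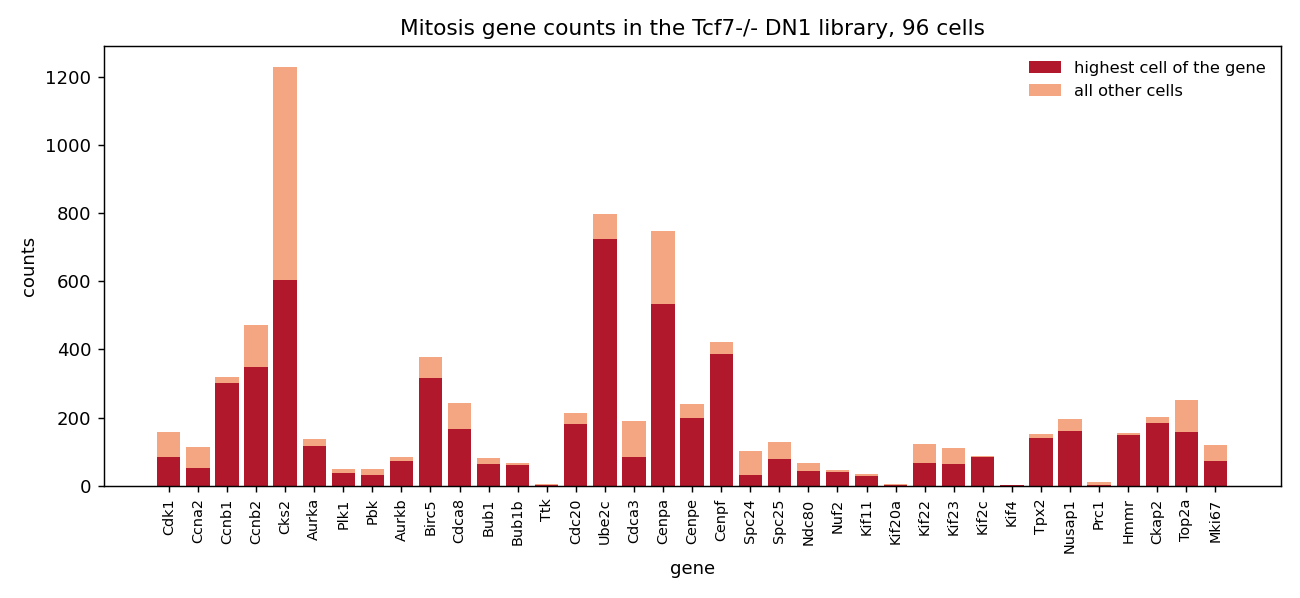
Counts (vertical axis) of each mitosis gene (horizontal axis), summed over the 96 kept cells of the Tcf7-/- DN1 library. Dark bars are the counts in the cell with the most counts of that gene, and light bars on top are the sum of the other 95 cells. A single cell holds 725 of 798 Ube2c counts and 604 of 1229 Cks2 counts.

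The other 4 Tcf7-/- DN1 programme cells were of another size. They held 65 to 119 counts of the 37 genes, and 2 to 8 genes with 6 counts or more, against 33 such genes in the cell with barcode 89. None of the 4 had over 1 count of Ccnb1. All 5 Tcf7-/- DN1 programme cells share their barcode with a programme cell of Tcf7-/- DN2-3, where 35 of 93 cells are programme cells. In the other DN2-3 libraries, which hold fewer programme cells, such pairs numbered 2 in WT, 0 in Vav-cre and 1 on each Lck-cre plate. The cells with barcodes 63 and 68 had 101 and 68 counts of the mitosis genes in DN1, and their barcode partners in DN2-3, the richest cells of that plate, had 4655 and 4412. The cells with barcodes 4, 5 and 89 had 65, 119 and 5634 counts in DN1, and their partners in DN2-3 had 557, 107 and 713, so the DN1 cell held fewer counts in 3 of the 5 pairs and more in 2. Over the 93 shared barcodes the summed count of the mitosis genes in the 2 plates had a Spearman correlation of 0.24, given as a description.

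Genes of a later stage were also counted in Tcf7-/- DN1 cells. Ptcra, which encodes the pre-T-cell receptor alpha chain, and Dntt, the template-free DNA polymerase of receptor rearrangement, were picked for this after their values were seen. Ptcra had a count in 72.9% of Tcf7-/- DN1 cells and 3.45% of Vav-cre DN1 cells, against 3.49% of WT DN1 cells. Dntt had one in 96.9% of Tcf7-/- DN1 cells and 5.17% of Vav-cre DN1 cells, against 5.81% of WT DN1 cells. Ptcra counts of the same barcode in the 2 Tcf7-/- plates had a Spearman correlation of 0.48, and Dntt counts one of 0.24. The log2 summed level of the mitosis genes had a Pearson r of 0.32 over the barcodes of the 2 Tcf7-/- plates and of 0.27 between Tcf7-/- DN1 and WT DN2-3. These were the highest values of any pair of plates, and all other pairs lay between -0.18 and 0.14. Without the cells whose barcode is a programme cell on the other Tcf7-/- plate, 61 DN1 cells and 88 DN2-3 cells are left. Programme cells then made up 34.1% in DN2-3, and none were left in DN1, because all 5 are among the cells left out. The median log2 ratio over WT was then 0.24 in DN1, with 5 of 17 measured genes at least 2-fold higher beside 11.7% of all, and 0.36 in DN2-3, with 6 of 36 beside 3.2% of all. The 5 DN2-3 cells left out held 35.7% of the mitosis gene counts of their library and include its 2 richest cells, so both values fall by that choice. The part that shared barcodes have in the Tcf7-/- values was not tested.

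In Vav-cre DN1 against WT DN1, 4 of 12 measured mitosis genes were at least 2-fold higher (Cks2, Cdca3, Kif23 and Top2a), beside 18% of all measured genes, and 3 were lower (Ccnb2, Cenpa and Cenpf), beside 9.64% of all. Top2a had 106 CPM in Vav-cre DN1, against 12.7 CPM in WT DN1. Cenpa had 27.8 CPM in Vav-cre DN1, against 67.9 CPM in WT DN1. The highest cell held 37.1% of the 622 mitosis gene counts in Vav-cre DN1, with 7 genes present, and 30.5% of the 2140 counts in WT DN1, with 18 genes present. That WT DN1 cell was the deepest of its plate, with 413143 counts, and carried 8 of 10 natural killer markers at a summed 4371 CPM and 4 of 8 dendritic markers at a summed 13978 CPM. It also had 3 of 9 early progenitor markers, 3 of 10 innate lymphoid markers and 1 of 10 DN3 markers. It had 49 counts of Ccna2 and 0 of Ccnb1. With each cell thinned to 10000 counts it was no longer a programme cell.

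The lists of related genes put the mitosis genes in context. Of 60 other mitosis genes in the table, 8 of 47 measured were at least 2-fold higher in Tcf7-/- DN2-3 than in WT DN2-3 and 0 were lower, beside 3.19% and 10.5% of all measured genes, with a median log2 ratio of 0.46. Cdkn3, a phosphatase of cyclin-dependent kinases, had 52.8 CPM in Tcf7-/- and 2.21 CPM in WT, and Fbxo5, an inhibitor of the anaphase-promoting complex, 86.5 CPM in Tcf7-/- and 28.3 CPM in WT. Of 37 DNA replication genes, 7 of 36 measured were higher and 0 lower, with a median of 0.66, led by Chaf1a, the histone chaperone subunit, at 38.1 CPM in Tcf7-/- and 6.63 CPM in WT. Of 9 genes that hold back the cell cycle, 1 of 7 measured was higher (Klf2) and 0 lower, with a median of -0.21. In Lck-cre DN2-3 against WT the DNA replication genes had a median of 0.48, with 3 of 36 measured genes higher beside 0.935% of all, while the 37 mitosis genes had 0.02. By these medians the DNA replication genes were above 0 in both comparisons, and their own difference between the Lck-cre plates is not given here. The mitosis median in the Lck-cre comparison was smaller than the median log2 ratio of the mitosis genes between the Lck-cre plates, 0.17.

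Over the cells of each DN2-3 library, the genes outside the list that followed the summed level of the mitosis genes most closely were taken among 4283 candidates with at least 50 CPM in a DN2-3 library and a count in 10% of its gate's cells. The first 11 were Hmgb2, Cks1b, Tuba1b, Mad2l1, Rrm2, Hist1h2ae, Tacc3, Smc2, H2afz, Asf1b and Fbxo5, with mean Pearson r over the 5 libraries of 0.37 to 0.43. Cells of a library share depth and plate, so these values are descriptions. Hmgb2, a chromatin protein, had 2263 CPM in Tcf7-/- DN2-3, 1057 CPM in Vav-cre and 1156 and 1170 CPM on the Lck-cre plates, against 1045 CPM in WT. Mad2l1, the checkpoint protein, had 101 CPM in Tcf7-/-, 45.4 CPM in Vav-cre and 69 and 38.3 CPM on the Lck-cre plates, against 41.2 CPM in WT. For both the Tcf7-/- library was the highest of the 5.

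The genes lie on 17 chromosomes of mm10 (GENCODE M21), with Ccna2 at chr3:36564865-36572150, Ccnb1 at chr13:100778650-100786570, Ube2c at chr2:164769898-164778822 and Cenpf at chr1:189640606-189688086. In 8 of 37 the gene overlaps another gene of the table on the opposite strand: Ccna2, Cdca8, Cdc20, Ube2c, Kif20a, Kif4, Nusap1 and Prc1. Whether reads were counted by strand is not given in the sources used here, so reads of these genes and of their partners may not be told apart. Ccnb1, Ccnb2, Kif22 and Kif4 have named pseudogenes, and their counts are uncertain to that extent.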

How the data were processed

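The labels' protocols name STRT, modified for multiplexing, and also Smart-seq2. Per the submitters' processing notes, TopHat2 2.1.1 and HTSeq were used with mm10, also given as GRCm38 for 576 of 768 cells. The use of strand and of molecular identifiers is not given in the sources used here. The authors deposited 2 tables by gene and cell: unnormalized counts, used for all main values, and log2 values, log2(TPM/10 + 1), used in 1 alternative. Of 23154 entries, 27 with a date in place of a symbol (0.141% of counts) were dropped. Cells with at least 1000 genes were kept, counts were summed per library and scaled to CPM, and log2 ratios used a pseudocount of 10 CPM. Lck-cre is the mean of both plates' log2 ratios. A programme cell had at least 2 counts of at least 10 of the 37 genes. A gene was measured at 10 CPM or more. Intervals are exact (95%) and cover counting error only. Folds against 0 counts use a floor of 3 counts per library. The ratio step was tested on simulated data. All 37 members may be named, and 12 other genes by their mean correlation with the members, of which 1 is not reported here. Of 62 other mitosis genes, Knl1 and Sgo1 were not matched. Doublets were not called. Each barcode was sorted as a single cell, and whether a well held more than 1 cell was not tested. The members, lists and limits were chosen with earlier results of these data known. Python 3.11.15, pandas 2.3.3, numpy 2.4.6 and scipy 1.17.1 were used.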

Additional observations from a re-analysis of the deposited data

Results flagged for a closer look

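Cenpf, the outer kinetochore protein, had log2 ratios to WT of opposite sign in the 2 gates of the Vav-cre line. Its log2 ratio over WT was -1.37 in the DN1 gate, with 1.29 CPM in Vav-cre and 19.3 CPM in WT, and 1.26 in the DN2-3 gate, with 108 CPM in Vav-cre and 39 CPM in WT. It was the only one of the 37 genes at least 2-fold apart in opposite directions between the gates in Vav-cre or Tcf7-/-. The Vav-cre DN1 level lay below the floor of 3 counts, which is 1.94 CPM in that library. Each value comes from 1 library a group, and the difference was not tested.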

How the results depend on the processing

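No paired analysis was possible because each group is 1 library, or 2 plates for Lck-cre, and cell barcode numbers do not pair cells. A share counted as moved when it left the 95% interval of the reported one, and a median log2 ratio when it moved by more than 0.28. That limit is the median size of the log2 ratio of single mitosis genes between the Lck-cre plates. The reported value stayed within these limits in 45 of 66 values of the share and in 63 of 95 of the median, and no median above 0.28 changed sign.

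Tcf7-/- DN2-3 had the highest share of programme cells of the DN2-3 gate under all 8 other settings of the share. Asking for 5 genes gave 64.5% in Tcf7-/- DN2-3, 29.7% and 23% on the Lck-cre plates, 18.2% in WT DN2-3 and 20.8% in Tcf7-/- DN1. Asking for 15 gave 20.4% in Tcf7-/- DN2-3 and 1.04% in Tcf7-/- DN1. Genes from 1 count gave 57% in Tcf7-/- DN2-3, 20.9% on Lck-cre plate 1 and 18.8% in Tcf7-/- DN1, and genes from 6 counts gave 25.8% and 1.04% in the 2 Tcf7-/- libraries. A summed level of 1000 CPM or more gave 53.8% in Tcf7-/- DN2-3, 26.3% in Vav-cre DN2-3, 28.6% and 24.1% on the Lck-cre plates, 25% in Tcf7-/- DN1, and 10.3% in the DN1 cells of Vav-cre. Thinning gave 25.8% in Tcf7-/- DN2-3 and 0% in WT DN1. Leaving out barcodes shared with a programme cell of the other Tcf7-/- plate, chosen after seeing the data, gave 0% in Tcf7-/- DN1 by construction, since all 5 of its programme cells are left out.

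For Tcf7-/- DN1 over WT DN1 the median was 2.62 and 0.72 with pseudocounts of 1 and 50 CPM, 1.95 for genes at 50 CPM, 1.31 with cells weighted equally, 1.31 thinned, 1.24 from the log2 values, 0.57 without the highest cell of each gene, and, chosen after seeing the data, 0.38 without the highest cell and 0.24 without shared barcodes. For Tcf7-/- DN2-3 over WT DN2-3 it was 0.49 with 50 CPM and 0.36 without shared barcodes. For Tcf7-/- DN2-3 over DN1 it was 1.20 and 0.53 with 1 and 50 CPM, 1.69 without the highest cell of each gene, 1.31 thinned, 1.99 without the highest cell and 1.77 without shared barcodes. For Vav-cre DN1 over WT DN1 it was 1.13 for genes at 50 CPM, 0.83 weighted equally, 0.70 thinned and 0.64 from the log2 values, and its sign turned with size factors (-0.05). The sign of the Lck-cre median turned without either plate (-0.03 and -0.01) and over all 37 genes (-0.01), where the median of Vav-cre DN1 was 0. Zeroing counts of 5 or fewer turned both (-0.06 each). For Vav-cre DN2-3 over DN1 it was 3.40 and 0.62 with 1 and 50 CPM, 2.67 at 50 CPM, 1.36 weighted equally and 1.27 from the log2 values. For WT DN2-3 over DN1 it was 3.10 and 0.67 with 1 and 50 CPM, 2.26 at 50 CPM, 1.39 weighted equally, 1.46 thinned and 1.32 from the log2 values.

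With each cell at the same depth, the highest cell held 10.8% of the member signal in Tcf7-/- DN2-3, 16.8% in Vav-cre DN2-3, 10.1% and 11.4% on the Lck-cre plates, 21.5% in WT DN2-3, 21.9% in Tcf7-/- DN1, 13.6% in DN1 cells of Vav-cre and 15.3% in WT DN1. Size factors moved the median of all genes by 0.16 in Tcf7-/- DN2-3 and 0.17 in Vav-cre DN2-3 over WT, by -0.11 in Vav-cre DN1 over WT and by -0.17 in WT DN2-3 over DN1. Except where a value is given, the cause of a shift was not tested.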
